A study of Mus musculus with 6 samples.

Results

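The 39 genes described here encode the machinery that copies DNA in S phase and supplies its building blocks. They comprise the MCM helicase, the factors that load and fire it, the polymerases and primase, the sliding clamp and its loader, RPA and the enzymes that join Okazaki fragments, enzymes of deoxynucleotide synthesis, and the histone factors Chaf1a, Chaf1b and Slbp. They were chosen by function, with earlier results of these data known. They were taken by symbol from count tables that list 54446 genes, and each symbol matched exactly 1 row. All 39 passed the filter on low counts, among 13172 genes tested.

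Total RNA had been sequenced from regulatory T cells (Treg cells, CD4 T cells defined by the transcription factor Foxp3), sorted as live CD45+ CD4+ Foxp3-GFP+ cells from subcutaneous B16F10 melanomas of mice. The 3 control libraries carry the genotype Foxp3Cre Ythdf2 fl/+ and are titled WT Control, although they hold Cre recombinase driven by Foxp3 and 1 floxed allele of Ythdf2. The 3 libraries labelled cKO are Foxp3Cre Ythdf2 fl/fl. Cre driven by Foxp3 is meant to act in Foxp3+ cells, and its restriction to them was not tested here. Every group shares the Cre, the GFP sort and the tumour. Cage 1 supplied control replicates 1 and 2 and cKO replicate 1, and cage 2 supplied control replicate 3 with cKO replicates 2 and 3. No age or sex is given in the sources used here. The labels do not state whether the libraries came from separate animals. P-values therefore set differences against the spread among these libraries, part of which may be technical, and do not extend to other animals.

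Ythdf2 (ENSMUSG00000040025, chromosome 4, 132184912 to 132212303, mm10), a reader of the m6A mark on mRNA that promotes mRNA decay, was at 124, 102 and 93.1 CPM in control replicates 1, 2 and 3 and at 90.1, 104 and 104 CPM in the libraries labelled cKO. CPM are read counts scaled to the library size after TMM normalization. The groups overlapped, so the counts over the whole gene do not show the deletion, and directions are given for the libraries as labelled. Libraries held 5602053 (cKO replicate 1) to 13602069 gene counts. Control replicate 3 and cKO replicate 1 stood apart. Control replicate 3 had 42.6% of its counts in the mitochondrial ribosomal RNA genes, against 9.97% to 19.2% in the others, and cKO replicate 1 had reads in 14758 genes, against 18395 to 20624. Defining Treg markers were present: Foxp3 ranged from 325 to 608 CPM and Cd4 from 412 to 718 CPM, and no library had any of the 8 listed markers at 0. Markers of melanoma cells (15 genes) summed to 80.7 to 518 CPM in cage 1 and to 2481 to 5074 CPM in cage 2.

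DNA replication starts when the origin recognition complex, Cdc6 and Cdt1 load the ring of Mcm2 to Mcm7 onto DNA, and Cdc45 and the GINS complex turn that ring into an active helicase. Polymerase alpha with primase starts each new strand, Pcna holds the later polymerases on DNA, and ribonucleotide reductase makes the deoxynucleotides. Most of these genes are transcribed in late G1 and S phase under E2F factors, and T cells turn them on when they divide.

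Promoter windows of part of the set hold the letters that such factors bind. RefSeq (GRCm38.p6, the mm10 build) gave a promoter for 32 of the 39 genes, read here as the 250 bases before the most upstream start. An E2F-type match (TTTCCCGC, TTTCGCGC, TTTGCCGC or TTTGGCGC on either strand; matches may overlap) was present in 8 of 32 windows (25%), against 1.92% of 27025 promoters of the same length. CCAAT, the letters bound by NF-Y, stood in 20 of 32 (62.5%) against 34.5%, on either strand. The letters TTTGAA, found in promoters of mitotic genes, were in 4 of 32 (12.5%) against 16.3%. Median GC content was 59.6% in these windows and 52.0% in all. Pola1 and Pcna did not overlap between the genotypes, and neither was called. Pcna holds no E2F-type match and is not shown. The 4 windows below are chosen examples, not a sample of the 32. They are Pola1, Mcm6 with the highest level, Mcm2, which separated the cages, and Mcm5 with overlapping E2F-type matches. Each is written 5′ to 3′ on the gene's strand, with capitals for E2F-type and CCAAT matches.
Mcm6 (minus strand, chr1:128359706-128359955): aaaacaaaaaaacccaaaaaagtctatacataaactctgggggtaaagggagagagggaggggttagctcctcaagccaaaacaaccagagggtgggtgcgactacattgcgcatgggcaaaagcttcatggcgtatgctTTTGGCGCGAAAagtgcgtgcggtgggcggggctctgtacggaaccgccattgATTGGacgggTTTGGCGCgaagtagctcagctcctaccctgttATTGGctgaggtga
Mcm5 (plus strand, chr8:75109259-75109508): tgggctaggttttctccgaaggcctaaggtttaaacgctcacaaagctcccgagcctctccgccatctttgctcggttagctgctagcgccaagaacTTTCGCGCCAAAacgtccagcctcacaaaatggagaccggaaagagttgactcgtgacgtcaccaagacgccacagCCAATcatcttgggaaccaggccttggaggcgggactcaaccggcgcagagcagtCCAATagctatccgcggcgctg
Pola1 (minus strand, chrX:93632156-93632405): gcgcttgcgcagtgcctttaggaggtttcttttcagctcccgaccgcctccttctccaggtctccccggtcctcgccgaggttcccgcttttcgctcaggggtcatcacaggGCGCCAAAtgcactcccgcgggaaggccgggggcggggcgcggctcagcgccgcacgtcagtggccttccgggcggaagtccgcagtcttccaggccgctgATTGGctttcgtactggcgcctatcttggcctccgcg
Mcm2 (minus strand, chr6:88898781-88899030): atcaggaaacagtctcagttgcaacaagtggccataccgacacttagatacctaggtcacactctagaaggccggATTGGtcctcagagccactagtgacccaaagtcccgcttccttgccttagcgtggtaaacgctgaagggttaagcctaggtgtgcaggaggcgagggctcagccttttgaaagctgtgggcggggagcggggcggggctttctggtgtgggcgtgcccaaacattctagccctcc
The Mcm6 window holds 3 E2F-type matches, Mcm5 holds 2, Pola1 holds 1 and Mcm2 none of these letters. Besides Mcm5, Mcm6 and Pola1, the match was present in Mcm7, Orc1, Cdc6, Gins3 and Rfc3. The windows of Mcm7, Orc1, Cdc6, Gins3 and Rfc3 overlap annotated exons, while the 4 printed windows do not. A match is a description of letters, not a site shown to be used. The letters GGACT, a common core around m6A, were in the longest coding transcript of 37 of 39 genes (94.9%), against 92.7% of 11404 tested coding genes, with medians of 1.31 and 1.04 per kilobase.

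Levels between genes were compared per exon length, as CPM per kilobase of exon (RPKM). Subunits of the helicase ring held the 3 highest levels. Mcm6 averaged 48.0 RPKM over the 6 libraries (range 40.0 to 62.6), Mcm3 43.9, Mcm4 37.3, the clamp Pcna 36.4 and the DNA ligase Lig1 32.8. The lowest means were those of Gins3 (1.91 RPKM, range 0.605 to 3.91), the clamp loader subunit Rfc3 (2.59) and the origin recognition subunit Orc1 (2.74). Subunits of 1 complex spanned wide ranges on this scale: within the ring Mcm7 was at 14.7 RPKM, and within GINS Gins4 was at 13.8 RPKM. Exon lengths unite all annotated transcripts, which lowers the RPKM of genes with long rare isoforms. Reads per gene and library ran from 10 (Gins3 in cKO replicate 1) to 3563 (Mcm6 in control replicate 2), and 24 of 39 genes had at least 100 reads in every library. Slbp and Pcna varied least, with a highest library 1.25 and 1.27 times the lowest in CPM, and Gins3 most, at 6.47 times. The median over the 39 genes was 1.75 times.

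**Figure D1:**
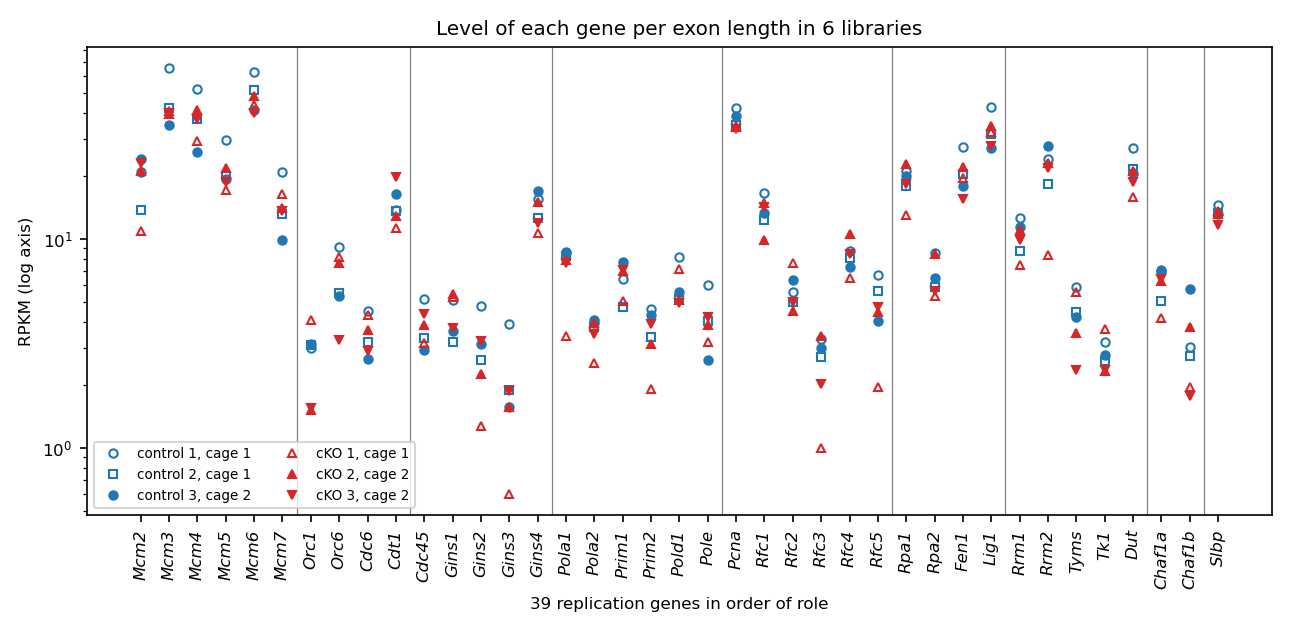
Level of each of the 39 genes in RPKM (log axis) in each library, ordered by role; open symbols are cage 1 and filled symbols cage 2, with circles and a square for controls and triangles for libraries labelled cKO. Mcm6 lies highest, with a mean of 48.0 RPKM, and Gins3 lowest, with 1.91 RPKM.

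None of the 39 genes differed between libraries labelled cKO and controls past the threshold. The edgeR quasi-likelihood test called 0 of 39 genes and 0% of all 13172 genes (adjusted p = 1 for each of the 39). At an unadjusted p under 0.05 edgeR gave 0 of the 39 and 213 of all genes (1.62%). DESeq2 gave 0 of the 39 and 279 of all, and limma-voom 0 and 239. Genotype is unbalanced over the cages, and with cage as a term edgeR gave 3 of the 39 (Rrm2, Pola1 and Chaf1b) and 1345 of all genes (10.2%), still with 0 called. The fold changes leaned to one side: 32 of 39 were below 0 with a median log2 fold change of -0.17, against 50.7% below 0 and a median of -0.005 over all genes tested. The genes were chosen with earlier results of these data known, so this lean is a description only. The lean depended in part on 1 library. Without control replicate 1 the split was 23 below and 16 above, with a median of -0.04. Scaling by total counts alone moved the median of all genes to 0.14. Under it 23 of the 39 genes were below 0, with a median of -0.04, and 33 were below the moved median. Standard errors ran from 0.14 to 0.60 (median 0.27), and 27 of the 39 intervals of 95% lay within -1 and 1, so for the other 12 a 2-fold change in at least 1 direction lay inside the interval. Beside this lean, all 13 tested macrophage and monocyte markers were below 0 for genotype (median -1.20) and all 6 erythroid genes above 0 (median 2.42), with 0 of either called. Macrophage and monocyte sums were 42.5, 106 and 576 CPM in the controls and 9.34, 157 and 290 CPM in the libraries labelled cKO, and erythroid sums 0.795, 4.60 and 27.3 against 22.3, 149 and 19.6 CPM. Their part in the lean was not tested. In bulk samples, fewer dividing cells and less of these mRNAs per cell cannot be told apart.

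Among the helicase subunits, 5 of 6 lay below 0 (4 of 6 with total counts), with a median of -0.17 and 0 called. Mcm6 stood at 292, 241 and 194 CPM in control replicates 1, 2 and 3 and at 205, 226 and 187 CPM in cKO replicates 1, 2 and 3. These values overlap, with control replicate 1 high and a log2 fold change of -0.24 (standard error 0.18, 95% interval -0.67 to 0.19). It was -0.085 without control replicate 1 and -0.15 with cage as a term. Mcm3 was at 246, 158 and 132 CPM in the controls and at 153, 149 and 151 CPM in the libraries labelled cKO, again with control replicate 1 highest. Controls therefore spread over a wider range for this gene (179 ± 59.8 CPM, SD, n = 3) than the libraries labelled cKO (151 ± 2.1 CPM, SD, n = 3). Mcm7 has the genes Cops6 and Ap4m1 on the opposite strand and hosts 3 microRNAs, and the strand setting of the counting is not given in the sources used here.

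Of the 4 origin recognition and licensing genes, 2 were below 0 (1 with total counts), with a median of -0.03 and 0 called. Cdt1, which brings the MCM ring to origins, had 43.2, 42.6 and 51.6 CPM in the controls and 35.4, 40.4 and 61.9 CPM in the libraries labelled cKO. Both extremes belonged to libraries labelled cKO, and the log2 fold change was 0.006 (standard error 0.24, interval -0.57 to 0.58). Cdc6, the ATPase that helps load the ring, had 23.8, 16.7 and 13.9 CPM against 22.6, 19.2 and 15.3 CPM. Its groups overlap almost completely.

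Cdc45 and the GINS subunits, which activate the helicase, lay below 0 in 4 of 5 cases (3 of 5 with RLE size factors or total counts), with a median of -0.26 and 0 called. Gins4 was at 21, 17.0 and 22.9 CPM in the controls and at 14.4, 20.3 and 16.1 CPM in the libraries labelled cKO, a log2 fold change of -0.26 (standard error 0.26), which ran from -0.42 without cKO replicate 2 to -0.14 without control replicate 3. Cdc45 was at 18, 11.8 and 10.3 CPM against 11.1, 13.5 and 15.4 CPM. Gins2 was at 19.6, 10.8 and 12.9 CPM against 5.24, 9.26 and 13.3 CPM. Control replicate 1 was the highest library for Gins2 and cKO replicate 1 the lowest, and its log2 fold change of -0.63 had a standard error of 0.43 (interval -1.64 to 0.37). It was -0.36 without cKO replicate 1 and -0.35 without control replicate 1, and -0.99 without cKO replicate 3. The cKO replicate 1 value of Gins2 rests on 32 reads.

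**Figure D2:**
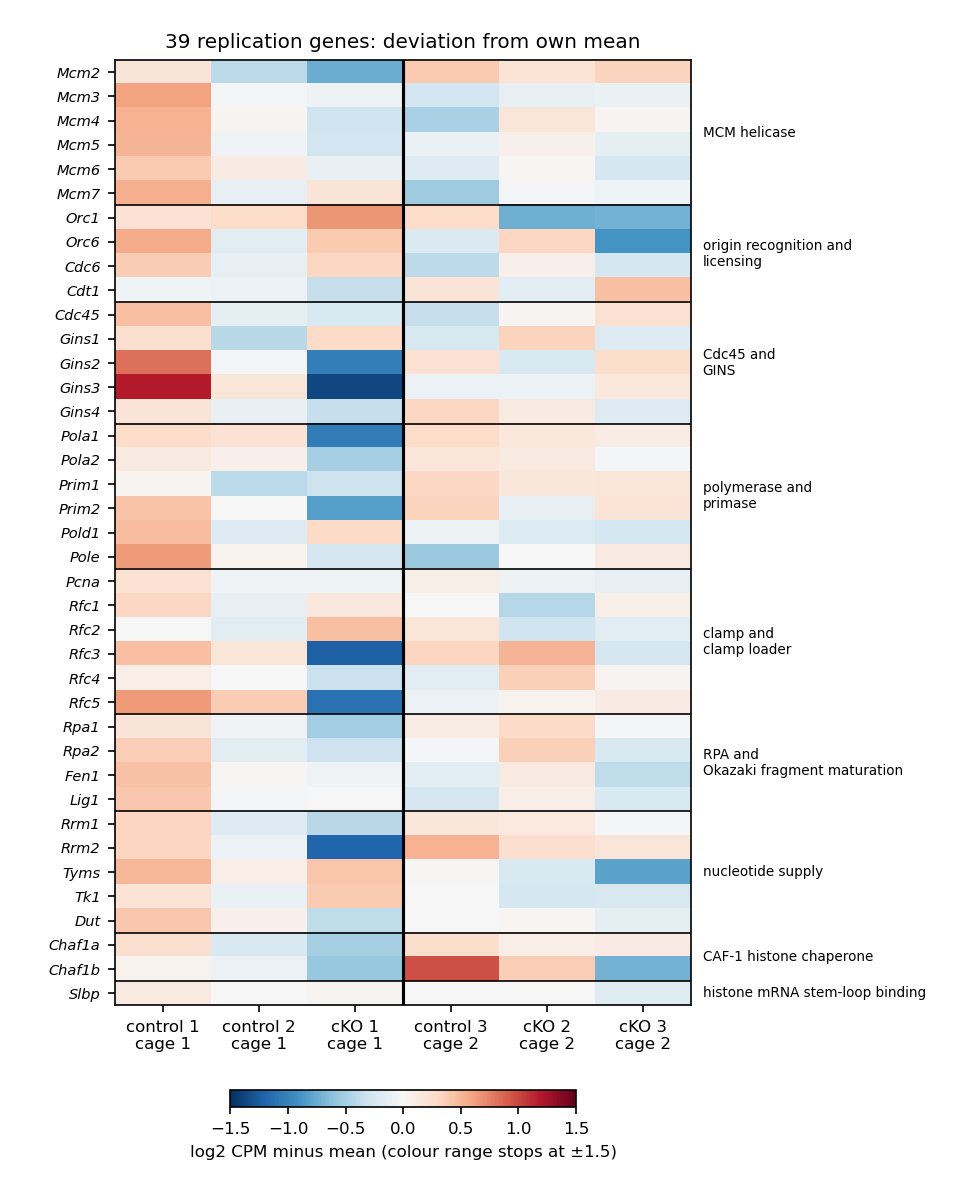
Each gene's log2 CPM minus its own mean over the 6 libraries (rows, ordered by role), with libraries as columns ordered by cage. The control replicate 1 column is mostly red and holds the highest value of 24 of the 39 genes, and cKO replicate 1 is the lowest library for 18.

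The polymerase and primase genes were below 0 in 5 of 6 cases, also with total counts (median -0.20, 0 called). Pola1 (ENSMUSG00000006678, chromosome X, 93304767 to 93632155), the catalytic subunit of polymerase alpha, was at 76.0, 72.8 and 75.7 CPM in the controls and at 30.1, 69.8 and 67.6 CPM in the libraries labelled cKO. All 3 libraries labelled cKO lay below all 3 controls, but cKO replicate 1 was far from the other two. The log2 fold change was -0.42 (standard error 0.30, interval -1.13 to 0.29). It was -0.13 without cKO replicate 1 and -0.70 with cage as a term. Pole, the catalytic subunit of the leading-strand polymerase, was at 67.1, 45 and 29.3 CPM against 35.9, 43.1 and 47.4 CPM, with overlapping groups. Prim2, the large primase subunit, was at 27.3, 20.2 and 25.6 CPM against 11.3, 18.6 and 23.4 CPM. The Prim2 groups overlapped too, with cKO replicate 1 lowest (log2 fold change -0.45, standard error 0.32, and -0.22 without that library).

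Among the clamp and clamp loader genes 4 of 6 were below 0 (3 of 6 with total counts), with a median of -0.15 and 0 called. Pcna, the sliding clamp (ENSMUSG00000027342, chromosome 2, 132249162 to 132253314), had 102, 83.9 and 92.8 CPM in the controls and 83.0, 82.5 and 80.2 CPM in the libraries labelled cKO. Pcna was the other gene whose groups did not overlap. Its means were 92.9 ± 9.01 and 81.9 ± 1.48 CPM (SD, n = 3 each), and the log2 fold change was small at -0.18 (standard error 0.14, interval -0.51 to 0.15), and -0.11 without control replicate 1. Altogether 2 of 39 genes (5.13%) had all libraries labelled cKO below all controls, against 4.22% of all genes, and 0 of 39 had the reverse, against 3.4%. Rfc1, the large clamp loader subunit, was at 99.5, 73.8 and 80.0 CPM against 89.4, 59.7 and 85.5 CPM. Rfc5, a small subunit, was at 31.4, 26.3 and 18.9 CPM against 9.17, 20.9 and 22.0 CPM. For Rfc5 cKO replicate 1 was again the low library, with 56 reads, and the log2 fold change was -0.55 (standard error 0.38), or -0.26 without that library.

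RPA and the Okazaki fragment genes were below 0 in 4 of 4 cases (1 of 4 with total counts), within a range of -0.21 to -0.10 and with 0 called. Lig1, which seals the fragments, was at 183, 136 and 116 CPM in the controls and at 139, 148 and 118 CPM in the libraries labelled cKO. The Lig1 log2 fold change was -0.10 (standard error 0.20) and turned to 0.0046 with scaling by total counts and to 0.096 without control replicate 1. Rpa1, the large subunit of the protein that coats single-stranded DNA, was at 118, 100.0 and 112 CPM against 72.2, 127 and 102 CPM. Both the lowest and the highest Rpa1 value came from libraries labelled cKO.

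The 5 nucleotide supply genes were all below 0 (4 of 5 with total counts), with a median of -0.33 and 0 called. Rrm1, the large subunit of ribonucleotide reductase, was at 138, 96.7 and 125 CPM in the controls and at 82.9, 122 and 109 CPM in the libraries labelled cKO (log2 fold change -0.20, standard error 0.20). Leaving out 1 library moved Rrm1 to between -0.34 (control replicate 2) and -0.06 (cKO replicate 1). Rrm2, the small subunit that peaks in S phase, was at 66.7, 50.5 and 77.2 CPM against 23.3, 63.7 and 60.8 CPM, with cKO replicate 1 far below the rest. Dut, which clears dUTP so that uracil is not built into DNA, was at 65.7, 52.3 and 49.7 CPM against 38.2, 50.7 and 44.9 CPM. Dut had the smallest unadjusted p of the 39 in the fit without cage (0.13, edgeR), with a log2 fold change of -0.33 (standard error 0.19, interval -0.78 to 0.12), or -0.20 without control replicate 1, and groups that overlap in control replicate 3 and cKO replicate 2. Tyms, which makes thymidylate, was at 35.9, 27.1 and 25.7 CPM against 34.1, 21.7 and 14.4 CPM. The 3 lowest values of Tyms are those of cage 2.

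Of the histone factors, Chaf1a, the large subunit of the CAF-1 chaperone that deposits histones behind the fork, was at 61.5, 44.7 and 62.6 CPM in the controls and at 37.0, 56.0 and 56.7 CPM in the libraries labelled cKO (log2 fold change -0.17, standard error 0.23). The Chaf1a fold change was -0.0017 without cKO replicate 1 and -0.33 with cage as a term. Chaf1b, its partner, was at 14.2, 12.9 and 27.0 CPM against 9.17, 17.8 and 8.30 CPM. Slbp, which binds the stem-loop of histone mRNAs, was the steadiest gene, at 88.2, 80.6 and 80.2 CPM against 82.5, 80.1 and 70.5 CPM. The Slbp log2 fold change was -0.10 (standard error 0.14, interval -0.43 to 0.23), or 0.043 with scaling by total counts.

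**Figure D3:**
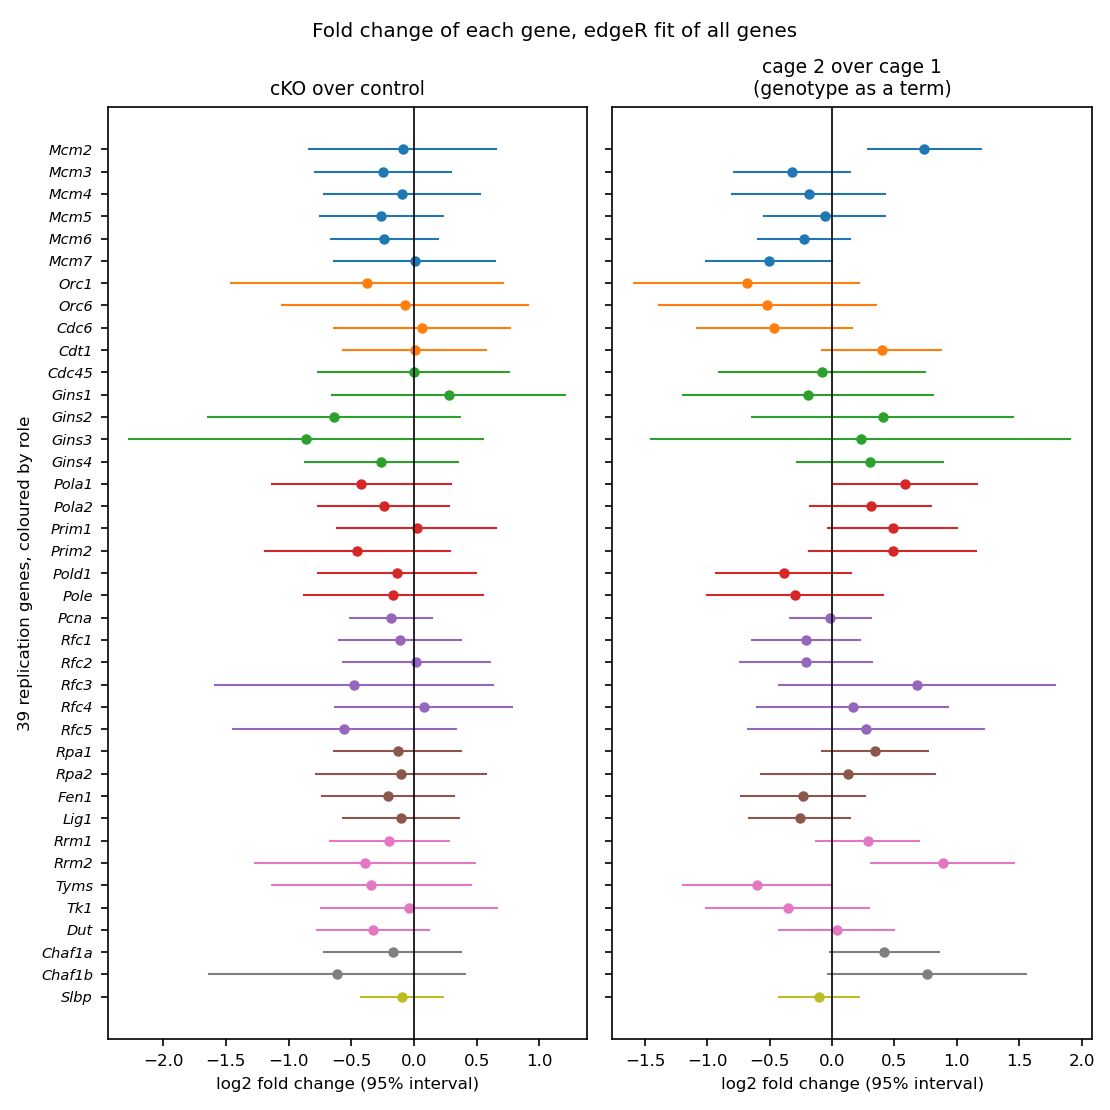
Log2 fold change (point) with its 95% interval (bar) for each gene, for libraries labelled cKO over control (left) and for cage 2 over cage 1 (right), coloured by role. All 39 genotype intervals cross 0, and the cage interval of Mcm2 runs from 0.28 to 1.20.

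The extreme values fell mostly in a pair of libraries. Control replicate 1 was the highest of the 6 libraries for 24 of 39 genes (61.5%), against 15.2% of all genes tested. The library cKO replicate 1 was the lowest for 18 of 39 (46.2%), against 32.4% of all genes. That library had the fewest gene counts, 14758 genes with a read against 18395 to 20624 in the others, and the highest share of records in no gene (35.8%, others 24.6% to 30.6%). The part of these signs in its low values was not tested. The summed CPM of the 39 genes was 2701, 2033 and 2080 in the controls and 1810, 2173 and 2023 in the libraries labelled cKO. These sums differ little outside those 2 libraries, both from cage 1.

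Within cage 1, where cKO replicate 1 meets control replicates 1 and 2, 30 of 39 genes were lower in the library labelled cKO (55.6% of all genes), with a median difference of -0.38 in log2 CPM (all genes -0.08). Within cage 2 the count was 23 of 39 (50.9% of all genes) and the median -0.09 (all genes -0.01). Melanoma and macrophage markers were mostly lower in the libraries labelled cKO too. Of 15 melanoma markers 14 were lower in cage 1 (median -2.52) and 13 in cage 2 (median -0.78), and of 13 macrophage and monocyte markers 12 (median -2.41) and 13 (median -2.78). The part of those cells in the differences of the 39 genes was not tested. All 6 helicase subunits were lower in cage 1, and 5 of 6 were higher in cage 2. The 4 RPA and Okazaki fragment genes were all lower in cage 1 and all higher in cage 2. The 5 nucleotide supply genes were lower in 3 of 5 cases in cage 1 and in 5 of 5 in cage 2. Altogether 14 of 39 genes (35.9%) were lower in cage 1 and higher in cage 2, against 24.6% of all genes, and 16 (41.0%) were lower in both, against 31%. The reverse, higher in cage 1 and lower in cage 2, held for 7 genes (17.9%, all genes 19.9%), and 2 were higher in both (5.13%, all genes 24.4%). In each cage, either the control or the cKO group is a single library, so these differences have no replicate check of their own.

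The test of that difference between cages, the interaction of genotype and cage, called 0 of the 39 genes (0.0456% of all genes were called by edgeR in either direction). At an unadjusted p under 0.05 it gave 8 of 39, of which 6 were positive, against 14.3% of all genes in either direction. DESeq2 and scaling by total counts, the alternatives run for the interaction, also called 0 of the 39. At an unadjusted p under 0.05 DESeq2 gave 6 of 39 (10.2% of all genes) and total counts 21 of 39 (30.2% of all genes). The median interaction of the 39 was 0.47 (all genes 0.17), and 1.01 with total counts (all genes 0.71). It rests on 2 residual degrees of freedom per gene before the spread is shared among genes. Rfc5 had the smallest p, with an interaction of 1.83 on the log2 scale (standard error 0.46, edgeR adjusted p = 0.20). For Rfc5 the difference was -1.63 in cage 1 and 0.18 in cage 2, in log2 CPM. Pola1 had an interaction of 1.16 (standard error 0.29, edgeR adjusted p = 0.21), from -1.30 in cage 1 and -0.14 in cage 2. Mcm4, a ring subunit at 188, 134 and 93.1 CPM in the controls and 106, 148 and 134 CPM in the libraries labelled cKO, had differences of -0.58 and 0.60. The Mcm4 interaction was 1.20 (standard error 0.33, edgeR adjusted p = 0.23), and that of Pole 1.27 (standard error 0.42, edgeR adjusted p = 0.27).

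**Figure D4:**
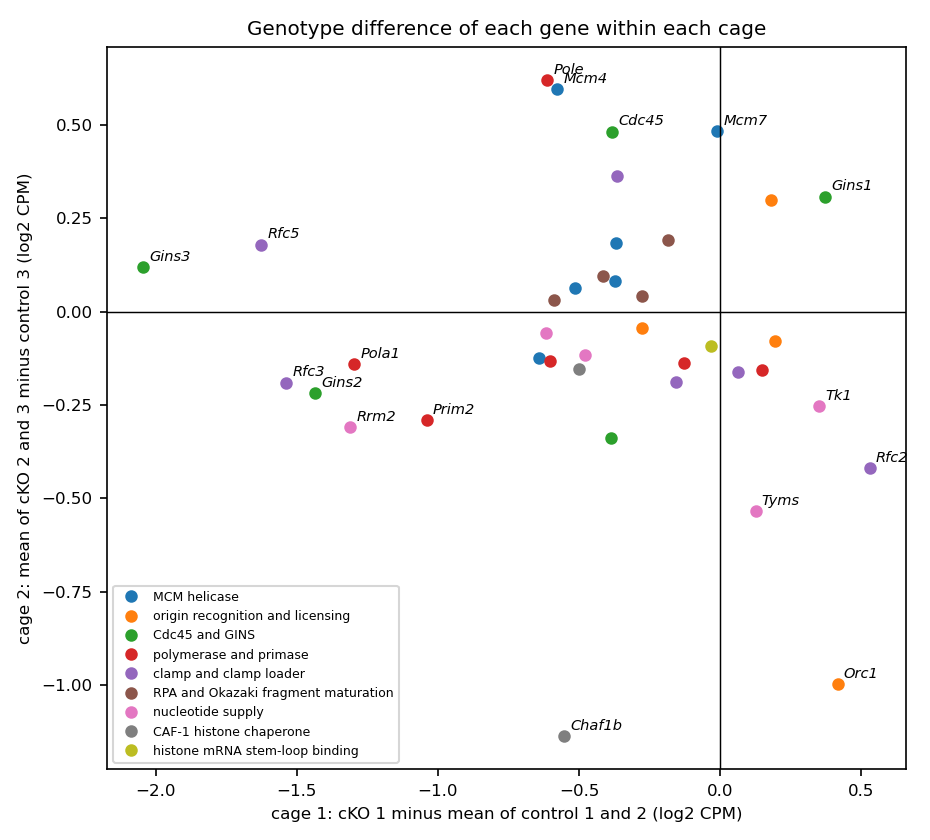
Difference in log2 CPM between libraries labelled cKO and control within cage 1 (horizontal) and within cage 2 (vertical), 1 point per gene coloured by role. Points left of 0 and above 0 are the 14 genes lower in cage 1 and higher in cage 2, Mcm4 (-0.58 and 0.60) and Pole (-0.61 and 0.62) among them.

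Cage 2 over cage 1, with genotype as a term, changed 1 of the 39 genes. Mcm2 (ENSMUSG00000002870, chromosome 6, 88883474 to 88898780) rose in cage 2, while 7.83% of all genes were called higher and 3.68% lower (11.5% in either direction), so the 39 genes hold a smaller share of calls than the genes at large. Mcm2 stood at 145, 96.0 and 75.7 CPM in cage 1 (control replicates 1 and 2, cKO replicate 1) and at 167, 147 and 160 CPM in cage 2 (control replicate 3, cKO replicates 2 and 3). The cages did not overlap, with means of 106 ± 35.8 and 158 ± 10.4 CPM (SD, n = 3 each). The log2 fold change was 0.74 (standard error 0.20, interval 0.28 to 1.20, edgeR adjusted p = 0.046). The call is fragile: it was lost when any of the libraries but control replicate 1 was left out, with fold changes of 0.46 to 1.04 and edgeR adjusted p from 0.053 to 0.35. It was also lost with scaling by total counts (0.41, edgeR adjusted p = 0.39), which moved the median of all genes to -0.32, and with no genotype term (0.58, edgeR adjusted p = 0.16).

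Rrm2 came next, at 66.7, 50.5 and 23.3 CPM in cage 1 and 77.2, 63.7 and 60.8 CPM in cage 2. The cages overlap in control replicate 1, and the log2 fold change of 0.89 (standard error 0.25, interval 0.31 to 1.46) did not pass (edgeR adjusted p = 0.055). It passed with DESeq2 (0.91, adjusted p = 0.0053), which was not the only setting in which it passed. Over all settings the fold change ran from 0.39, without cKO replicate 1, to 1.44. Pola1, at 76.0, 72.8 and 30.1 CPM against 75.7, 69.8 and 67.6 CPM, had a fold change of 0.59 (standard error 0.25, edgeR adjusted p = 0.18), which was 0.02 without cKO replicate 1 and 1.21 without control replicate 3 (edgeR adjusted p = 0.017). Tyms went the other way, at 35.9, 27.1 and 34.1 CPM in cage 1 and 25.7, 21.7 and 14.4 CPM in cage 2. Every cage 2 value of Tyms lies below every cage 1 value, with a log2 fold change of -0.60 (standard error 0.26, edgeR adjusted p = 0.18).

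By cage 19 of the 39 genes were above 0 and 20 below, with a median of -0.02 (all genes 0.01). This split moved to 11 above and 28 below with total counts, and to 34 above and 5 below with the replicate number as a block. Only the libraries numbered 2 differ in cage, so with that block the cage difference rests on control replicate 2 and cKO replicate 2. The 4 genes of the polymerase alpha and primase complex (Pola1, Pola2, Prim1 and Prim2) and both CAF-1 subunits were above 0, except Pola2 with total counts (-0.03). None of them passed in the main fit, while Pola1 passed without control replicate 3. In the ring Mcm2 stood alone above 0, and the other 5 subunits were between -0.51 and -0.06. Cages did not overlap for 5 of 39 genes (12.8%), against 27.3% of all genes. They were Mcm2 and Prim1, higher in cage 2 (5.13%, all genes 15.1%), and Mcm3, Tyms and Slbp, lower in cage 2 (7.69%, all genes 12.2%). Markers of other cells moved with cage. Of the 15 melanoma markers 13 were called higher in cage 2 by edgeR (5 of the 15, Tyr, Oca2, Gpr143, Mc1r and S100b, were at 0 in cKO replicate 1). Macrophage and monocyte markers summed to 9.34 to 106 CPM in cage 1 and 157 to 576 CPM in cage 2, with 7 of 13 tested called higher. Of the 14 listed, 9 were at 0 in cKO replicate 1 (Adgre1, Cd14, Fcgr1, Mrc1, Arg1, C1qa, C1qb, Itgam and Spi1). Of the 8 Treg markers 6 were called lower in cage 2, and they summed to 7381 to 8324 CPM in cage 1 and 4533 to 6261 CPM in cage 2. The part of these cells in the Mcm2 difference was not tested.

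Other genes of these pathways were not called for genotype either. None of the 32 other replication genes was called by edgeR (23 below 0, or 16 with total counts, median -0.13). Dbf4, which activates the kinase Cdc7 at origins, was at 52.1, 63.5 and 61.7 CPM in the controls and 76.0, 71.4 and 73.9 CPM in the libraries labelled cKO, and did not overlap (log2 fold change 0.32, standard error 0.15). Atad5, which unloads Pcna, was at 48.2, 48.5 and 52.1 CPM against 39.6, 42.5 and 34.0 CPM, without overlap in the opposite direction (-0.36, standard error 0.17). Of the 23 other nucleotide synthesis genes 20 were below 0 (17 with total counts), with a median of -0.39, and 0 were called. Atic, of purine synthesis, was the 1 gene of that list with an unadjusted p under 0.05 (0.014, edgeR), at 80.9, 54.3 and 68.3 CPM against 37.2, 46.0 and 46.5 CPM. Atic did not overlap between groups, and its log2 fold change was -0.65 (standard error 0.20). Cad, of pyrimidine synthesis, was at 70.5, 52.9 and 87.9 CPM against 29.5, 46.1 and 60.0 CPM, with overlap. The 6 other chaperone and chromatin maintenance genes were all below 0 (4 with total counts), with a median of -0.28 and 0 called. Dnmt1, the maintenance DNA methyltransferase, was at 356, 308 and 258 CPM against 240, 268 and 237 CPM, and overlapped in 1 library of each group. Of 24 E2F, cyclin and G1/S regulators 19 were below 0 (17 with RLE size factors, 16 with total counts), with a median of -0.19 and 0 called. Of 24 mitosis genes 19 were below 0 (16 with total counts), with a median of -0.23 and 0 called.

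By cage, 5 of the 24 mitosis genes rose in cage 2 and 0 fell (21 above 0, median 0.80), beside 1 of the 39 replication genes. Of all genes tested, 7.83% were called higher and 3.68% lower. For 21 of the 24 mitosis genes the lowest library was cKO replicate 1, of cage 1, against 32.4% of all genes. Between controls the median cage difference of the mitosis genes was 0.03 in log2 CPM (all genes -0.02). Between libraries labelled cKO it was 1.42 (all genes 0.05). Cage 2 is 1 library among the controls, and cage 1 is 1 library, cKO replicate 1, among those labelled cKO. The median interaction of genotype and cage was 1.23 for the mitosis genes (all genes 0.17). The part of cKO replicate 1 in the cage difference of this list as a whole was not tested. Bub1, a spindle checkpoint kinase, was at 22.0, 17.8 and 4.75 CPM in cage 1 and 44.7, 34.5 and 23.0 CPM in cage 2 (log2 fold change 1.79, standard error 0.37, edgeR adjusted p = 0.016). The Bub1 call was lost without cKO replicate 1 (1.16, edgeR adjusted p = 0.080). Foxm1, a transcription factor of mitotic genes, rose by 1.14 (standard error 0.26, edgeR adjusted p = 0.024), and this call was lost without control replicate 2, cKO replicate 3 or cKO replicate 1 (at the last 0.68, edgeR adjusted p = 0.18). The other replication genes had 1 call, Orc2 (1.25, standard error 0.27, edgeR adjusted p = 0.019), which overlaps Nif3l1 on the opposite strand. The Orc2 call was lost without control replicate 2, cKO replicate 3 or cKO replicate 1 (at the last 0.86, edgeR adjusted p = 0.12). The nucleotide synthesis genes also had 1 call, the mitochondrial folate enzyme Mthfd2 (0.92, standard error 0.25, edgeR adjusted p = 0.045). It was lost when any library but control replicate 1 or cKO replicate 2 was left out, and was 0.68 without cKO replicate 1 (edgeR adjusted p = 0.27). With total counts none of Bub1, Foxm1, Orc2 and Mthfd2 was called (edgeR adjusted p from 0.065 to 0.27). The G1/S regulators had 2 calls higher and 3 lower. Cdk2, the S-phase kinase, rose, at 38.3, 30.4 and 30.5 CPM in cage 1 and 173, 93.2 and 101 CPM in cage 2 (2.02, standard error 0.19, edgeR adjusted p = 0.00056). It overlaps the melanoma gene Pmel on the opposite strand, so its reads may not be told apart from Pmel's. Rbl2, a pocket protein that holds cells out of the cycle, fell by 0.75 (standard error 0.15, edgeR adjusted p = 0.015), a call lost without control replicate 3 or cKO replicate 3. The difference in calls between the lists was not tested.

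Library by library, the median deviation of the 39 genes from their own means was 0.37, -0.05 and 0.003 in the controls and -0.30, 0.07 and -0.10 in the libraries labelled cKO. The mitosis genes deviated by 0.30, 0.05 and 0.28 and by -1.07, 0.26 and 0.27. In cKO replicate 1 the mitosis genes were thus further below their mean than the replication genes, while in control replicate 1 both were above it. The other nucleotide synthesis genes deviated by 0.40, 0.02 and 0.09 and by -0.76, 0.15 and 0.05. Mki67, a marker of cycling cells, was at 1235, 1012 and 783 CPM in the controls and 588, 871 and 845 CPM in the libraries labelled cKO, again highest in control replicate 1 and lowest in cKO replicate 1.

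**Figure D5:**
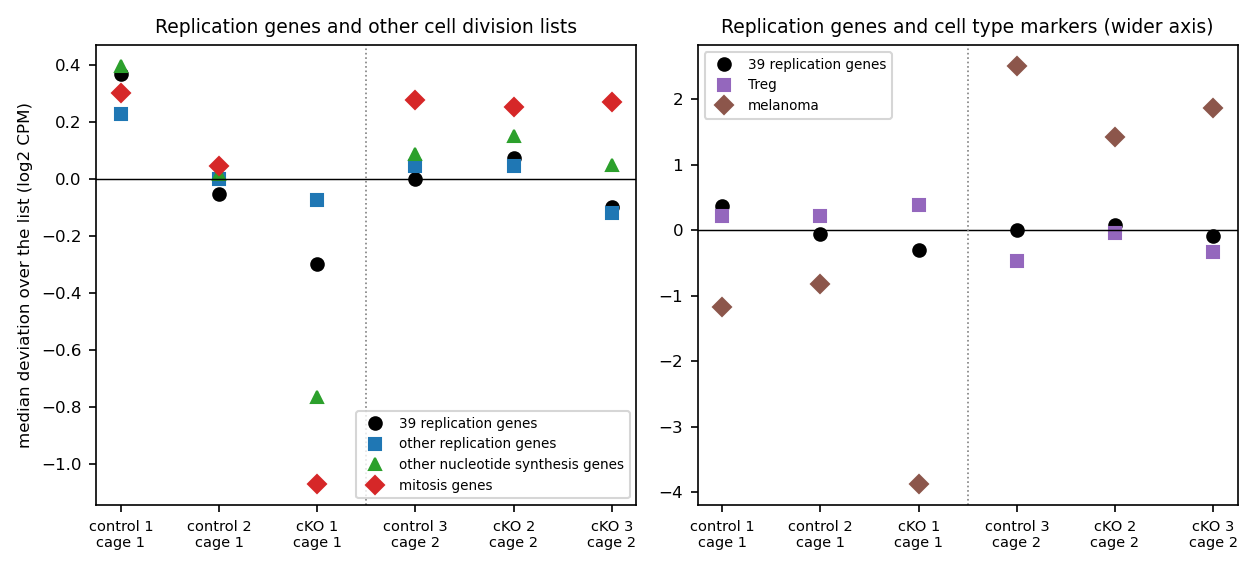
Median deviation in log2 CPM from each gene's own mean, by library, for the 39 replication genes beside other cell division lists (left) and cell type markers (right, wider axis). The 39 genes run from -0.30 in cKO replicate 1 to 0.37 in control replicate 1, and the melanoma markers from -3.88 to 2.5.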

How the data were processed

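Each library has a table of raw counts, whole numbers of reads by gene without normalization, as the authors deposited it. Per the submitters' processing notes, Trimmomatic 0.39 trimmed the reads, HISAT2 2.1.0 aligned them to mm10 and HTSeq counted them, and DESeq2 is named as well. A stranded SMARTer kit for total RNA was used, per the labels' protocols. For the counting, the annotation release is not given in the sources used here, nor is the strand setting. Of the 39 genes, 17 overlap an annotated gene on the other strand and 10 on the same strand.

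Symbols, coordinates and exon lengths came from GENCODE M21, which matched 54409 of 54446 identifiers. Rows without a gene were left out of library sizes and tests (no feature 24.6% to 35.8% of records, ambiguous 1.43% to 2.21%, multiply aligned 9.22% to 12.9%). Titles gave the group, replicate and cage. Every pair of libraries within a group differed by more than sampling noise (lowest chi-square per degree of freedom 17.4).

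All 6 libraries entered each fit of the edgeR 4.0.16 quasi-likelihood test (R 4.3.3; filterByExpr with minimum count 10 and minimum total 15; TMM; Benjamini-Hochberg over 13172 genes, threshold 0.05): genotype alone, cage with genotype, and their interaction. Standard errors came from the fold change and its F statistic. Within-cage differences and deviations use log2 CPM with a prior count of 2, except marker sums, which are sums of TMM-scaled CPM. The code was run on simulated counts, which does not show that small changes would be found. Read counts are not independent molecules.

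Values by library are given for the 2 genes of each role with the highest mean CPM, the 4 with the smallest unadjusted p for genotype and the 4 for cage, and, from each pathway list, genes among the 2 with the smallest p per comparison. Foxp3, Cd4 and Mki67 were added by name, and Mcm4 after its values were seen. The 39 genes, the lists and this rule were chosen with earlier results of these data known. Alternatives were DESeq2 1.42.0, limma-voom (limma 3.58.1), other size factors, total counts, no filter, a mean CPM of at least 5, mitochondrial and ribosomal RNA genes left out, cage as a term, no genotype term, the replicate number as a block, and each library left out.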

Additional observations from a re-analysis of the deposited data

Results flagged for a closer look

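The genotype difference itself differed between the cages for 6 of the 13172 genes tested, by the edgeR interaction of genotype and cage at an adjusted p under 0.05. They are Tyr, Met, Eps8 and Syt4 with a positive interaction and the predicted genes Gm10800 and Gm24270 with a negative one. None is a replication or nucleotide supply gene. Tyr, the pigment enzyme among the melanoma markers, was at 0 in cKO replicate 1.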

How the results depend on the processing

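No replication gene was called for genotype under any alternative run, and the median fold change stayed below 0, at -0.26 to -0.04 when 1 library was left out. Over all genes, only the fit with no filter on low counts made genotype calls (26 higher, 7 lower). With total counts 9 genes turned from below to above 0 (Lig1 at 0.0046, Slbp at 0.043, and Mcm2, Cdc45, Orc6, Rfc1, Rpa1, Rpa2 and Tk1 at 0.01 to 0.10), each still under the median of all genes. Adding cage turned Cdt1 (-0.14) and Prim1 (-0.14) below 0, and Orc6 (0.10), Tk1 (0.049) and Cdc45 (0.036) above 0. For the replicate block and the fits with 1 library left out, signs were followed gene by gene for part of the set only. Among those genes, Cdt1 turned with the replicate block (-0.032), and Cdt1 (-0.28 to 0.16) and Lig1 (-0.21 to 0.10) with 1 library left out. More of the set turned without control replicate 1, with 23 below 0 and 16 above, against 32 and 7 in the main fit.

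Cage calls over all genes were 1550 higher and 799 lower with DESeq2, 646 and 732 with total counts, 1474 and 873 with no filter and 703 and 146 with no genotype term. Leaving out 1 library gave 595 to 919 higher and 65 to 376 lower. Of the 39 genes, 2 were called higher by DESeq2, by RLE size factors, with no filter and with a mean CPM of at least 5, 0 with total counts or no genotype term, and 0 to 2 with 1 library left out. Their cage median was -0.35 with total counts and -0.16 to 0.36 with 1 library left out. Total counts moved the all-gene median to 0.14 for genotype and -0.32 for cage. Interaction calls over all genes were 28 higher with total counts, and 39 higher and 15 lower with DESeq2, and the median of the 39 went from 0.47 to 1.01 with total counts while that of all genes went from 0.17 to 0.71. The causes were not tested.

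Deviations of same-numbered libraries of the 2 groups from their group means had correlations of 0.41, -0.24 and 0.55. Every pair of a control and a cKO library from the same cage was positive (0.27 to 0.55). Every pair across cages was negative (-0.56 to -0.18). The signs thus followed cage, and the numbers were not taken to pair the libraries. With the replicate block, genotype calls stayed at 0 (median of the 39 -0.18), cage calls fell to 46 higher and 0 lower over all genes and 0 among the 39, the cage median of the 39 was 0.47 and Tyms turned to 0.12. With this block the cage difference rests on control replicate 2 and cKO replicate 2, because libraries of each other number share a cage. Depth limits the low genes: 15 of the 39 had under 100 reads in some library.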

Other observations

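The share of each subunit in the reads of the 6 MCM ring genes does not depend on library scaling. This measure was chosen after the values were seen. Mcm2 held 13.4% (95% exact binomial interval 12.8% to 14.0%), 12.5% (11.9% to 13.1%) and 11.1% (10.2% to 12.1%) of the ring's reads in control replicates 1 and 2 and cKO replicate 1, all of cage 1. It held 23.6% (22.4% to 24.9%), 17.9% (17.1% to 18.7%) and 20.9% (20% to 21.8%) in control replicate 3 and cKO replicates 2 and 3, all of cage 2. The intervals cover counting error only. The cage means were 12.3% ± 1.16 and 20.8% ± 2.86 (SD, n = 3 each). An exact two-sided permutation test gave p = 0.1, the smallest that 3 libraries against 3 allow, and 0.3 after Benjamini-Hochberg adjustment over the 6 subunits. Any full separation of the cages gives this p, so it adds nothing to the separation itself. The test leaves out genotype, which is unbalanced over the cages, and the 6 shares of a sum are not independent of each other. Mcm3 held 21.9% ± 1.15 in cage 1 and 18.8% ± 0.784 in cage 2 (SD, n = 3 each), also without overlap and lower in cage 2. The shares of the other 4 subunits overlapped between cages. A share of a sum shows unequal change between subunits, not which of them changed.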
